A study of Mus musculus with 29 samples.

Results

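Mammary fat of formerly obese mice moved to a low-fat, 30% calorie-restricted diet (LFCR) was compared with mammary fat of mice that stayed obese (Obese), across all genes. The libraries were taken by the treatment field of the labels, 5 for LFCR and 5 for Obese, which is 10 of the 29 libraries in the series. All animals were C57BL/6N mice of genotype wt. LFCR mice were first made obese on a 60% fat diet (D12492) and then lost weight on the restricted diet. Obese mice stayed on the 60% fat diet. LFD mice, also formerly obese, were moved to the low-fat diet without restriction, and Control mice ate diet D12450J and were never made obese. Each of these groups has 5 libraries, and its values are given side by side. All 29 libraries set the spread behind the p-values, including those of formerly obese mice on Mediterranean (MCR, 30%) or intermittent (ICR) calorie restriction. Every mouse, in every group, was injected at 25 weeks after randomization with E0771 cells, a mouse mammary cancer line, into mammary fat pad 4, so all groups carry a tumor on the other side. Pad 9, the pad opposite, was taken at endpoint for RNA. Age at sampling and sex are not given in the labels.

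The labels conflict on the tissue. Every title begins with the word tumor and the labels carry E0771 as a cell line with a mammary cancer cell type, while the tissue and source fields name normal tissue of the pad opposite the tumor. The libraries were read as fat pad: Adipoq, which encodes the adipocyte hormone adiponectin, was in rank 17 of all genes per length in LFCR and in rank 14 in Obese. Each library has its own animal code, so p-values measure the spread between animals. In a whole fat pad, fewer cells of a type and less RNA per cell cannot be told apart.

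Adipocytes make fat from sugar by a short route. Glucose is broken down to pyruvate, which enters the mitochondrion, becomes acetyl-CoA and leaves as citrate; ATP citrate lyase cuts citrate back to acetyl-CoA in the cytosol. Acetyl-CoA carboxylase and fatty acid synthase build it into a saturated chain at the cost of NADPH, and elongases and desaturases lengthen and bend that chain before it is stored as triglyceride. The transcription factors SREBP1c and ChREBP are known to drive this route when insulin and carbohydrate are plentiful, and high-fat feeding is known to hold it down. Obese fat is also known for macrophages that gather round dying adipocytes and take up their lipid, and leptin is the hormone by which adipocytes report their fat load.

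Of the 19387 genes tested, 4142 (21.4%) passed an adjusted p of 0.05 between LFCR and Obese. In LFCR, 2316 genes (11.9%) were higher and 1826 (9.42%) lower, and the median log2 difference over all genes was −0.04. The change was more than 2-fold for 544 genes that rose and 429 that fell. The 5 LFCR libraries lay above all 5 Obese libraries for 1709 genes (8.82%) and below all of them for 1207 (6.23%). Every adjusted p for a gene is from limma with Benjamini-Hochberg adjustment over all genes tested, log2 differences are given ± SE on the deposited scale, which understates the change of low genes, and values per library are normalized counts in the order of replicates 1 to 5.

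Recovered depth was 32532655 to 40633113 reads in LFCR and 17599285 to 49026986 in Obese. LFCR libraries 1 and 3 and Obese libraries 1 and 5 stood apart from the rest: their mean over 13 B cell genes was 6.78, 7.13, 6.44 and 6.91 on the log2 scale, against 11.3 to 11.8 in the other LFCR libraries and 12.2 to 12.7 in the other Obese libraries. Obese 2 was high in skeletal muscle genes, at a list mean of 10.9, as was LFCR 5, at 9.10. Results that rest on these libraries are given without them where that matters. A lane is named in the column headers, and 4 lanes each hold 1 LFCR and 1 Obese library. Within these 4 pairs, 88.8 to 99.9% of the 4142 called genes differed in the direction of the comparison. Those genes were called from the same libraries, so a high share follows from their selection and is no separate support.

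The route from pyruvate to stored fat was higher in LFCR at nearly every step. Fasn, the fatty acid synthase, had 585990, 1096910, 705991, 834849 and 508880 counts in LFCR, against 5726, 5526, 15363, 9256 and 14415 in Obese. Acly, the ATP citrate lyase, had 72507, 172329, 102917, 123987 and 52957 counts in LFCR, against 5254, 4852, 5358, 5380 and 5778 in Obese. Elovl6, which adds a carbon pair to the C16 chain, had 51420, 105956, 36886, 70728 and 33858 counts in LFCR, against 793, 702, 872, 669 and 1071 in Obese. The lowest LFCR library lay far above the highest Obese library for each of these genes, and Obese libraries were the tighter group for Acly and Elovl6. The log2 difference was 6.29 ± 0.81 for Fasn (adjusted p = 1.07e-05), 4.18 ± 0.71 for Acly (adjusted p = 0.000166) and 6.03 ± 0.92 for Elovl6 (adjusted p = 5.74e-05). Within the 4 lanes the difference was 5.14 to 7.63 for Fasn, 3.19 to 5.14 for Acly and 4.95 to 7.18 for Elovl6. The lane with the smallest gap for each gene was the one that holds LFCR 5 and Obese 5.

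**Figure D1:**
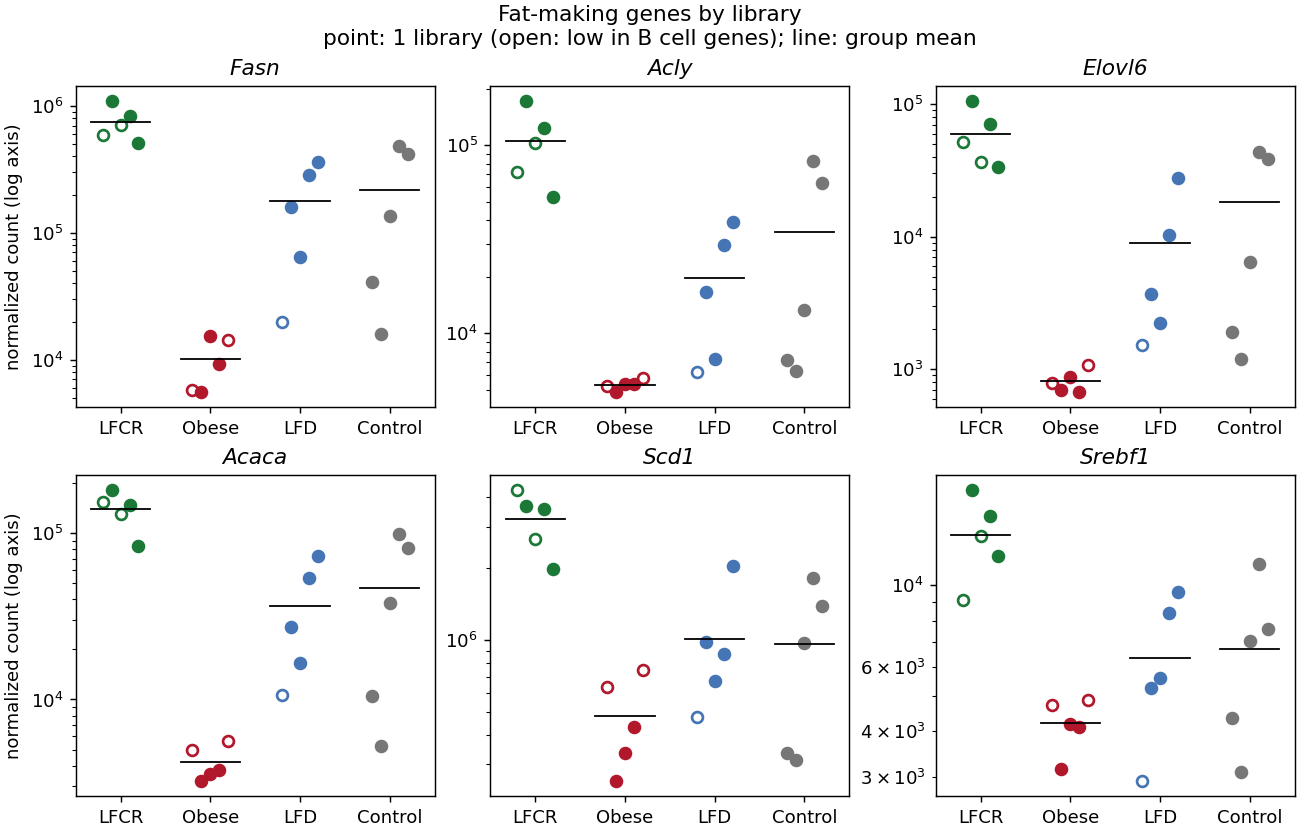
Normalized counts on a log axis of Fasn, Acly, Elovl6, Acaca, Scd1 and Srebf1, 1 point per library, in LFCR, Obese, LFD and Control, with group means as lines and libraries low in B cell genes as open points. All 5 LFCR points lie above all 5 Obese points in each panel. Most LFD and Control libraries lie between the Obese and the LFCR ranges for Fasn, Acly, Elovl6 and Acaca, and a smaller share do for Scd1 and Srebf1. Some reach into the LFCR range, as for Acly and Elovl6, some lie inside the Obese range, as for Scd1, and for Srebf1 some lie below it.

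The DNA just before these gene starts is shown because the transcription factors of this route are known to bind near promoters, together with NF-Y at CCAAT boxes and Sp1 at GC boxes. The 250 bases before the start were taken from RefSeq on GRCm38.p6, read along the gene's own strand, for Fasn (chr11:120824548-120824797, minus strand), Acly (chr11:100528001-100528250, minus strand), Elovl6 (chr3:129532136-129532385, plus strand) and Thrsp (chr7:97417551-97417800, minus strand), which encodes Spot 14, a small protein that promotes fat synthesis. Capitals mark matches, on either strand, to the CCAAT box, to the E-box CACGTG, to the GC box GGGCGG or to TCACNCCAC, the core of a sterol response element.
Fasn: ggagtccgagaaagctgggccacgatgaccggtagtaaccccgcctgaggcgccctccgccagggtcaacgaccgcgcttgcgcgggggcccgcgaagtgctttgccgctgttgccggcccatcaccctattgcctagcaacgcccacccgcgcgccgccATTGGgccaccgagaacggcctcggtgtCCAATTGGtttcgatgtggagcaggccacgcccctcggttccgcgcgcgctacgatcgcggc
Acly: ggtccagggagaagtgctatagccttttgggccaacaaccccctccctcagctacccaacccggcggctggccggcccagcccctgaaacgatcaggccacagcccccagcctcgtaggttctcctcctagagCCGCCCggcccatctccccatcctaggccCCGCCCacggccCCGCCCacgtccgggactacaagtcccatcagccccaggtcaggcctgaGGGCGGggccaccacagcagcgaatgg
Elovl6: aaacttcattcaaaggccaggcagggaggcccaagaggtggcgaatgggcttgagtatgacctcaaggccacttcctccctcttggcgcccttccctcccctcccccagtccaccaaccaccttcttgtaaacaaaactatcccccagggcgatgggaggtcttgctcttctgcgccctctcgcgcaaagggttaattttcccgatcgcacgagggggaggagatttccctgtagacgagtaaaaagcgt
Thrsp: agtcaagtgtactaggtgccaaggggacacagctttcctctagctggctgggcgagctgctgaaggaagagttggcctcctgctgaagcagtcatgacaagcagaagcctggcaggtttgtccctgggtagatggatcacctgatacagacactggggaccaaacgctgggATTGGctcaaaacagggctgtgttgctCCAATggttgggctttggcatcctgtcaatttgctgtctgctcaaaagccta

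These windows share no single layout. Fasn holds 3 CCAAT matches, of which a pair on opposite strands overlap, Thrsp holds 2, Acly holds 4 GC boxes and no CCAAT, and Elovl6 holds none of the 4 motifs. The 3 lists used were supply of cytosolic acetyl-CoA, pentose phosphate and NADPH supply, and chain synthesis with elongation and desaturation. Of their 42 tested genes, 36 were matched to promoters. CCAAT was present in 17 of 32 promoters (53.1%) of the 27 matched genes that rose. The shares were 3 of 10 (30%) for the 9 matched genes of these lists that did not rise and 33.8% for all 32851 promoters. Beside these, CCAAT was in 11 of 19 promoters (57.9%) of citrate cycle genes and in 5 of 12 (41.7%) of macrophage genes. GGGCGG was present in 22 of the 32 (68.8%), in 8 of the 10 (80%) and in 32.7% of all. It was in 10 of the 19 citrate cycle promoters (52.6%) and in 3 of the 12 macrophage promoters (25%). CACGTG was present in 3 of the 32 (9.38%), in 1 of the 10 (10%) and in 6.02% of all promoters, and TCACNCCAC in 0 of the 32, in 0 of the 10 and in 1.05% of all.

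The supply of cytosolic acetyl-CoA was higher in LFCR almost throughout, with 13 of 14 tested genes up, none down and a list median of 1.93. Mpc1, a subunit of the mitochondrial pyruvate carrier, had 16010, 16317, 13257, 12958 and 8665 counts in LFCR, against 3423, 2426, 2600, 2093 and 3294 in Obese (log2 difference 2.26 ± 0.39, adjusted p = 0.000203). Pcx, pyruvate carboxylase, which refills oxaloacetate, differed by 2.73 ± 0.48 (adjusted p = 0.000233), and Slc25a1, which carries citrate out of the mitochondrion, by 3.23 ± 0.56 (adjusted p = 0.000196). All 13 genes that rose had no overlap between LFCR and Obese libraries. Pdha1 and Pdhb, subunits of pyruvate dehydrogenase, differed by 2.13 and 2.26 (adjusted p = 4.61e-05 and 0.0001), and Acss2, which makes acetyl-CoA from acetate, by 4.32 (adjusted p = 6.68e-05). Pdp1, a pyruvate dehydrogenase phosphatase, was the 1 gene of this list without a call, at −0.40, while its relative Pdp2 rose by 1.04 (adjusted p = 2.43e-05). The list mean was higher in LFCR by 1.32 to 2.72 within the 4 lanes.

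Of 19 tested genes for making, lengthening and desaturating the chain, 12 were higher in LFCR and 1 lower, with a median of 1.26. Acaca, the cytosolic acetyl-CoA carboxylase and the committed step of the route, had 154848, 182671, 129808, 148598 and 83954 counts in LFCR, against 4950, 3216, 3547, 3760 and 5600 in Obese (log2 difference 5.03 ± 0.63, adjusted p = 9.67e-06). Acacb, the carboxylase at the mitochondrial surface, differed by 3.33 (adjusted p = 0.000122). Scd1, the main stearoyl-CoA desaturase of fat, had 4283230, 3652650, 2662750, 3556700 and 1983420 counts in LFCR, against 634117, 254528, 334877, 430918 and 749163 in Obese (log2 difference 2.81 ± 0.47, adjusted p = 0.00015). Scd1 was already among the most abundant genes of Obese fat. Its rise was smaller in fold than that of Fasn but far larger in reads. Its relatives Scd2 and Scd3 also rose, by 1.73 and 1.47 (adjusted p = 0.00994 and 0.000324), as did the polyunsaturated fatty acid desaturases Fads1 and Fads2, by 1.04 and 1.11 (adjusted p = 0.00582 and 0.00423). The other 6 members were not called. Elovl1, an elongase of very long chains, was lower by 0.31 on the log2 scale, at 1179, 1059, 1014, 1054 and 1054 counts in LFCR, against 1422, 1211, 1375, 1215 and 1475 in Obese (adjusted p = 0.0011). Near-identical stretches of the Scd genes may split reads between them, so the smaller ones, Scd2 and Scd3, are less certain.

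Together these genes took a visible share of each library. The 42 genes of the 3 lists held 13.0, 15.1, 10.9, 14.5 and 9.04% of reads in LFCR, against 2.37, 1.27, 1.62, 1.89 and 2.76% in Obese. Scd1 alone averaged 8.37% of reads in LFCR and 1.49% in Obese. Without Scd1 the other 41 genes held 3.10 to 5.80% in LFCR, against 0.409 to 0.573% in Obese, so the groups stayed apart either way. Ranked per length by TPM, a length-corrected share within each library that is used here only to order genes inside a group, Fasn was in rank 13 in LFCR and rank 1493 in Obese. Acly had rank 34 in LFCR and 1333 in Obese, and Elovl6 rank 94 in LFCR and 9128 in Obese.

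**Figure D2:**
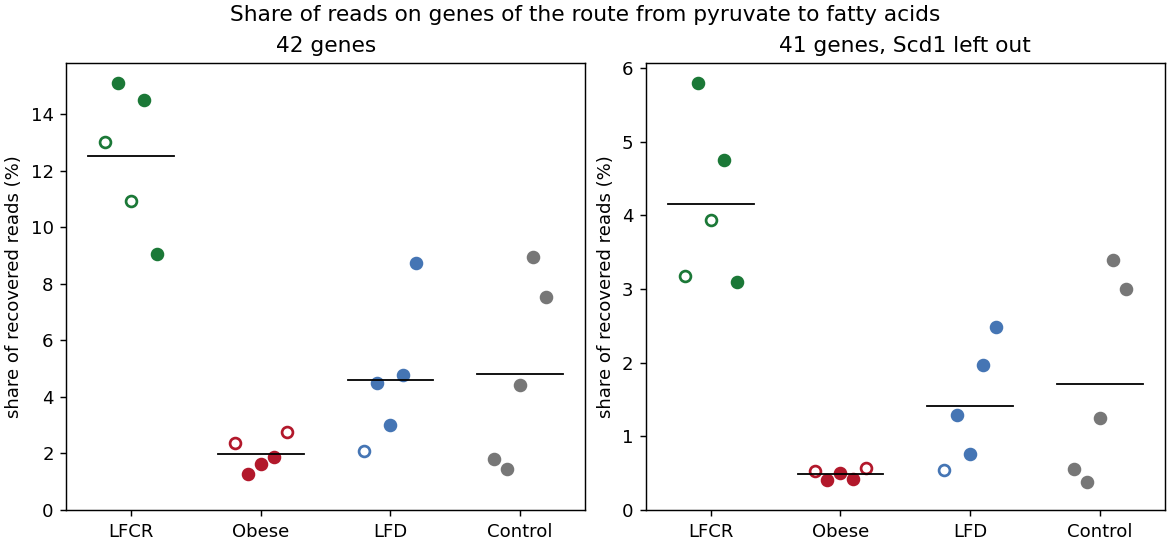
Share of recovered reads, in percent, on genes of the route from pyruvate to fatty acids and of its NADPH supply, 1 point per library. The left panel holds 42 genes and the right panel leaves out Scd1, with group means as lines and libraries low in B cell genes as open points. The LFCR libraries lie between 9.04 and 15.1% on the left, above the highest Obese library at 2.76%, and LFD and Control libraries span most of the range between.

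Of 9 tested genes of sugar entry 4 rose and 2 fell, and none of the 9 was called lower without the libraries low in B cell genes. Slc2a5, a fructose transporter, had 671, 2066, 902, 1310 and 428 counts in LFCR, against 5.64, 4.70, 1.71, 3.73 and 9.41 in Obese (log2 difference 5.32 ± 0.95, adjusted p = 0.000264). Slc2a4, the insulin-responsive glucose transporter GLUT4, differed by 2.08 (adjusted p = 0.000239) and Hk2, a hexokinase, by 1.37 (adjusted p = 0.00101), while Slc2a1, the general glucose transporter GLUT1, was lower by 0.41 on the log2 scale (adjusted p = 0.00632, and 0.173 without the libraries low in B cell genes). Of 17 glycolytic genes, 9 rose and none fell, with a median of 0.67, among them Aldoa (1.41, adjusted p = 0.00255) and Pkm (1.14, adjusted p = 0.000432). Of 9 genes of the pentose phosphate pathway and NADPH supply 6 rose and none fell, with a median of 0.81. Me1, the cytosolic malic enzyme, rose by 3.47 ± 0.68 (adjusted p = 0.000669) and Tkt, transketolase of the pentose phosphate pathway, by 3.61 ± 0.51 (adjusted p = 2.88e-05). G6pdx, the entry enzyme of that pathway, showed no such gap: it had 15481, 11196, 10863, 10270 and 8424 counts in LFCR, against 19008, 9874, 8546, 8709 and 16035 in Obese, with overlap (log2 difference −0.09 ± 0.26, adjusted p = 0.839).

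Some regulators rose and others were not called. Srebf1, which encodes SREBP1, had 9134, 18210, 13660, 15434 and 12009 counts in LFCR, against 4720, 3157, 4195, 4117 and 4864 in Obese, and its rise of 1.67 ± 0.30 (adjusted p = 0.000319) was smaller than that of the enzymes. Mlxipl, which encodes ChREBP, rose by 1.78 (adjusted p = 0.00225), and Thrsp by 5.32 ± 0.70 (adjusted p = 1.36e-05), with 49612, 69522, 31190, 50021 and 26196 counts in LFCR, against 840, 458, 1134, 1328 and 2100 in Obese. Of 20 regulators tested, 7 rose and none fell, with a median of 0.21. With the B cell list as a covariate 11 rose and 2 fell, and with quality weights 11 rose and 1 fell. The NF-Y subunits Nfya, Nfyb and Nfyc, the USF factors Usf1 and Usf2, the SREBP escort Scap and the sterol regulator Srebf2 were not called. Their log2 differences were between −0.35 and 0.22, and Nfya, Nfyc, Usf2, Scap and Srebf2 passed under some alternative. Cholesterol synthesis, the other known target of SREBP factors, had 8 of 19 genes up and 1 down, with a median of 0.37. Nsdhl and Pmvk, enzymes of that pathway, rose by 1.75 and 1.63 (adjusted p = 0.000432 and 0.00039), whereas Hmgcs1, near its start, fell by 1.13 (adjusted p = 0.00264).

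Genes of fat storage and release rose in part. Of 14 genes of triglyceride assembly 10 were higher and none lower, with a median of 1.43: Agpat2, which adds the fatty acid in the middle position of glycerol, differed by 2.72 (adjusted p = 0.000513), Gpd1, which makes the glycerol backbone, by 2.21 (adjusted p = 0.00728), and Dgat1, which adds the last chain, by 1.64 (adjusted p = 0.000882). Of 19 genes of lipid droplets and lipolysis 8 were higher, 1 lower and 10 not called, and 5 were higher without Obese 2. Adrb3, the β3-adrenergic receptor through which noradrenaline triggers lipolysis in rodent fat, had 11806, 14763, 20582, 13609 and 12687 counts in LFCR, against 1363, 533, 1038, 1873 and 3226 in Obese (log2 difference 3.38 ± 0.35, adjusted p = 1.26e-06). Pnpla2, the first triglyceride lipase, rose by 1.16 (adjusted p = 0.0067) and Pde3b, which ends the adrenergic signal, by 1.43 (adjusted p = 0.000185). Hilpda, an inhibitor of that lipase known to respond to low oxygen, was the 1 member that fell, at 124, 160, 180, 181 and 181 counts in LFCR, against 750, 526, 327, 274 and 494 in Obese (log2 difference −1.32 ± 0.19, adjusted p = 3.56e-05). Of 15 genes of fatty acid uptake 4 rose and 1 fell; Cd36, the main fatty acid transporter of fat, overlapped between the groups and was at −0.04 ± 0.29 (adjusted p = 0.942).

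Mitochondrial genes rose widely and by modest amounts. In the citrate cycle 16 of 17 genes were higher and none lower, with a median of 0.95, and in the breakdown of branched-chain amino acids, a known carbon source for fat synthesis in adipocytes, 19 of 21 were higher and none lower, with a median of 0.93. Bcat2, which takes the amino group off branched-chain amino acids, had 4520, 5817, 3903, 4017 and 3628 counts in LFCR, against 1377, 1036, 1351, 1190 and 1826 in Obese (log2 difference 1.68 ± 0.24, adjusted p = 3.56e-05). The groups did not overlap for this gene.

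The respiratory chain followed. Complex I had 39 of 46 subunits and factors higher, complex III all 8, complex IV 16 of 25 and ATP synthase 12 of 17, with medians of 0.75, 1.11, 0.74 and 0.78 and none lower. The 46 complex I genes averaged 10.6, 11.0, 10.8, 10.8 and 10.5 on the log2 scale in LFCR, against 10.2, 9.74, 9.91, 9.82 and 10.2 in Obese, so the groups did not overlap. Uqcrq, of complex III, rose by 1.42 (adjusted p = 0.000407) and Atp5c1, of ATP synthase, by 1.09 (adjusted p = 1.57e-05). Of 78 mitochondrial ribosomal protein genes 48 rose and none fell, with a median of 0.40, whereas none of 81 cytosolic ribosomal protein genes was called, with a median of −0.21. Within the 4 lanes the complex I list mean was higher in LFCR by 0.28 to 1.24.

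Fatty acid oxidation shared part of this rise, with 11 of 21 genes higher and 2 lower. Cpt2 and Acadvl, of the mitochondrial oxidation of long chains, both rose by 1.35 (adjusted p = 0.000474 and 0.000529). Among those that fell, Cpt1a, which admits long chains to the mitochondrion, had 3100, 2610, 2723, 3441 and 3548 counts in LFCR, against 6774, 6074, 6034, 5120 and 6210 in Obese (log2 difference −0.97 ± 0.13, adjusted p = 1.16e-05). It was lower in all 5 LFCR libraries than in any Obese library. Of 11 genes of thermogenic fat 5 rose, among them Ppargc1a, a coactivator of mitochondrial genes (1.69, adjusted p = 0.000151), and Cidea (3.68, adjusted p = 0.00151), but Ucp1, the uncoupling protein that defines this fat, had 4.02, 48.6, 39.7, 51.2 and 11.5 counts in LFCR, against 156, 32.1, 20.5, 1.49 and 25.9 in Obese (log2 difference −0.12 ± 1.12, adjusted p = 0.954).

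**Figure D3:**
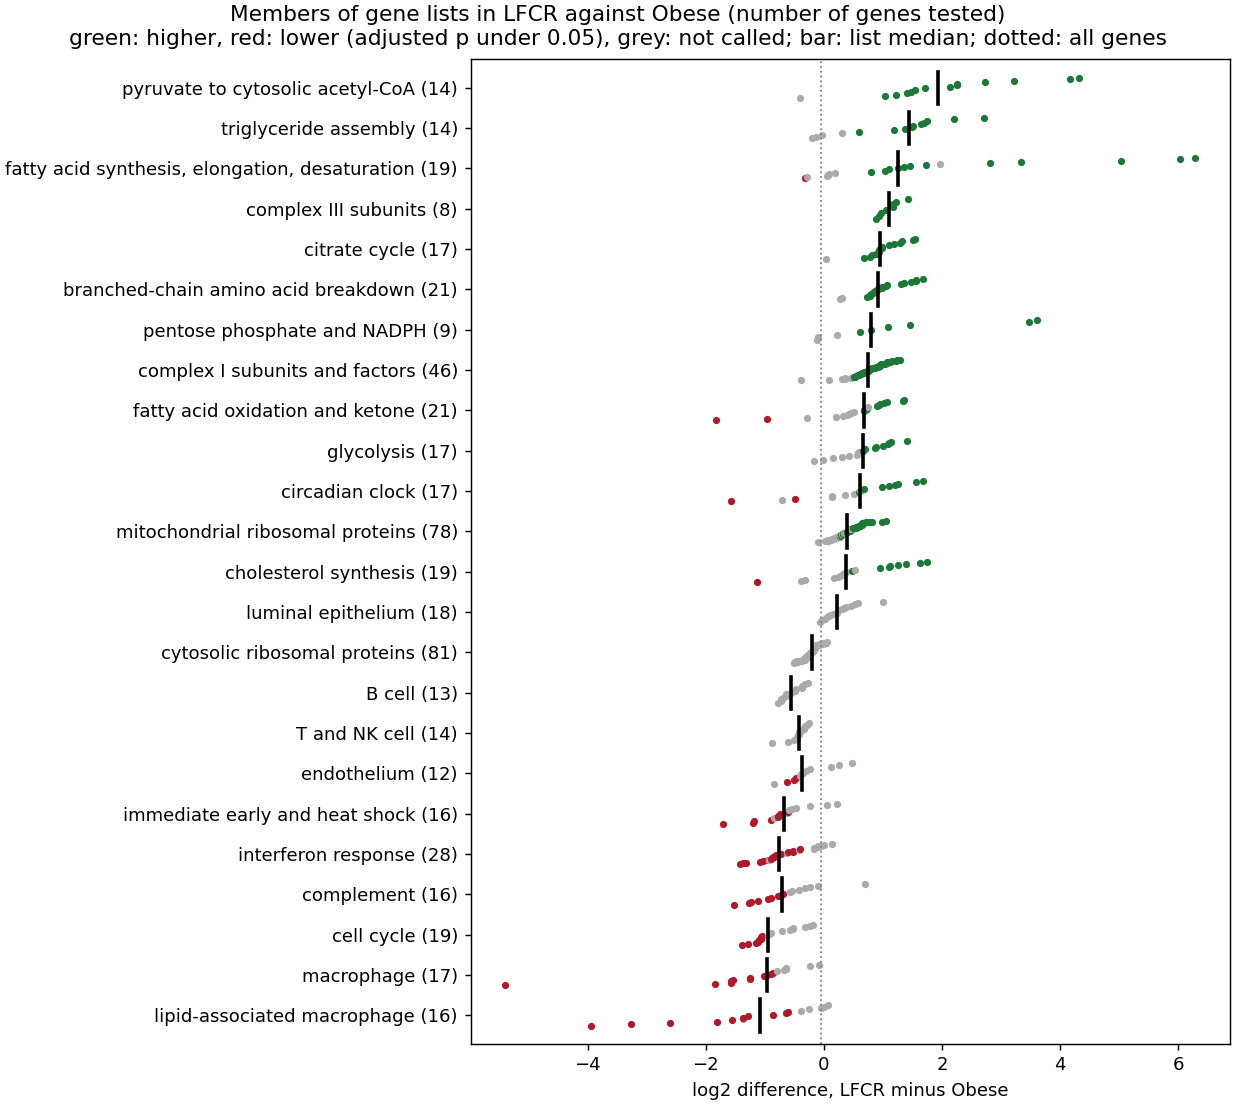
Log2 differences, LFCR minus Obese, of the tested members of 24 gene lists, 1 point per gene, with called genes in colour, list medians as bars and the median of all genes as a dotted line. Lists of fat synthesis and mitochondria lie to the right, up to a median of 1.93 for the supply of acetyl-CoA, and lists of macrophages, cell cycle and interferon response to the left, with the median of lipid-associated macrophage genes at −1.08.

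Adipocyte hormones moved in both directions. Leptin, Lep, had 39549, 10128, 20015, 16464 and 14480 counts in LFCR, against 146334, 89864, 88661, 54354 and 143078 in Obese (log2 difference −2.44 ± 0.53, adjusted p = 0.00148). Every LFCR library was below the lowest Obese library, and within the 4 lanes the difference was −3.30 to −1.44. Apln, the peptide apelin, fell by 1.52 (adjusted p = 0.000233). Cfd, adipsin, rose by 2.22 (adjusted p = 0.000124), Rbp4, the retinol binding protein, by 2.20 (adjusted p = 0.000122), Nrg4, a growth factor of adipocytes, by 2.49 (adjusted p = 2.05e-05) and Retn, resistin, by 1.99 (adjusted p = 0.000297). Adipoq overlapped, with 113190, 65328, 77627, 57397 and 51970 counts in LFCR, against 58948, 37384, 44549, 34606 and 77646 in Obese (log2 difference 0.54 ± 0.28, adjusted p = 0.181). Of 11 adipogenic transcription factors Pparg, Cebpa and Klf15 rose, by 1.08, 1.06 and 1.34 (adjusted p = 0.00548, 0.00815 and 0.00207), and none fell.

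Of 8 genes known to mark fat pads in expansion 4 fell and none rose. Mest, an imprinted gene whose level in mouse fat is known to follow fat gain, had 4397, 450, 2307, 2086 and 1478 counts in LFCR, against 31306, 24140, 28065, 13767 and 31645 in Obese (log2 difference −3.84 ± 0.69, adjusted p = 0.000281). Sfrp5, a secreted WNT inhibitor, had 2712, 308, 1161, 429 and 664 counts in LFCR, against 25435, 13463, 9825, 8125 and 24935 in Obese (log2 difference −4.19 ± 0.75, adjusted p = 0.000264). Neither gene overlapped, and LFCR 1 was the highest LFCR library for both. Of 12 imprinted growth genes 3 fell, Mest, Peg10 (−3.50, adjusted p = 0.000185) and Peg3 (−2.41, adjusted p = 0.00167), and none rose; Igf2 and H19, the best known pair, were at 0.43 and −0.47 with no call.

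Genes best known from liver were among the largest rises. Cyp2e1, a cytochrome P450 that oxidises ethanol and ketones, had 102233, 80125, 51831, 54298 and 51611 counts in LFCR, against 210, 370, 1341, 1118 and 1497 in Obese (log2 difference 6.46 ± 0.55, adjusted p = 1.55e-07). Alb, serum albumin, had 7583, 4603, 4561, 4390 and 3083 counts in LFCR, against 510, 166, 239, 358 and 525 in Obese (log2 difference 3.71 ± 0.40, adjusted p = 1.68e-06). The groups were apart by a wide margin for both. Of 13 major urinary protein genes, which encode pheromone carriers, 8 rose and none fell, with a median of 1.67; Mup10 rose most, with 2005, 4385, 464, 1711 and 1444 counts in LFCR, against 14.8, 62.7, 66.7, 26.1 and 179 in Obese (log2 difference 4.37 ± 1.08, adjusted p = 0.0046). These genes are near-identical copies, so the split of reads among them is uncertain, and the number called was between 4 and 12 over the alternatives run, and 4 without the libraries low in B cell genes. Among glutathione S-transferases 7 of 18 rose, led by Gsta4 (2.11, adjusted p = 6.52e-05), which detoxifies lipid aldehydes; 4 rose without Obese 2, and 4 without Obese 3.

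Macrophage genes were lower in LFCR. Itgad (chr7:128154376-128223816, plus strand of GRCm38 in GENCODE vM21), an integrin of macrophages in inflamed tissue, had 9.37, 10.8, 1.99, 21.6 and 39.7 counts in LFCR, against 3648, 1778, 1474, 234 and 2801 in Obese (log2 difference −5.40 ± 0.51, adjusted p = 8.07e-07). Il1rn (chr2:24336853-24351494, plus strand), the secreted antagonist of the interleukin 1 receptor, had 28.1, 30.3, 13.9, 25.1 and 45.0 counts in LFCR, against 775, 483, 441, 71.0 and 396 in Obese (log2 difference −2.90 ± 0.41, adjusted p = 2.92e-05). Obese 4 was the lowest Obese library for both genes and still lay above all LFCR libraries. Within the 4 lanes the difference was −6.92 to −3.72 for Itgad and −3.96 to −1.42 for Il1rn. Of 17 macrophage genes 11 fell and none rose, with a median of −0.97, and the list mean was 8.47 to 9.55 in LFCR, against 9.86 to 10.6 in Obese. Itgam and Cd68, general macrophage markers, both fell by 1.57 (adjusted p = 2.88e-05 and 0.000177), Itgax, an integrin of the crown-forming macrophages of obese fat, fell by 1.84 (adjusted p = 0.00152), and Adgre1, the F4/80 antigen, fell by 1.53 (adjusted p = 0.000246) with overlap. Mrc1, a scavenger receptor of resident macrophages, was at −0.80 with no call (adjusted p = 0.0739, and as low as 0.0057 over the alternatives run).

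The lipid-associated macrophage genes showed the same gap. Mmp12, a macrophage elastase, had 173, 61.6, 63.6, 97.0 and 115 counts in LFCR, against 3060, 1822, 2586, 503 and 2877 in Obese (log2 difference −3.95 ± 0.47, adjusted p = 5.09e-06). Trem2, the lipid receptor that defines this state, had 73.6, 35.7, 47.7, 61.1 and 67.0 counts in LFCR, against 811, 534, 581, 126 and 609 in Obese (log2 difference −2.60 ± 0.38, adjusted p = 3.42e-05). Neither gene overlapped, with Obese 4 again the lowest of its group. Of 16 genes in this list 10 fell and none rose, with a median of −1.08. Gpnmb, a membrane glycoprotein of lipid-laden macrophages, fell by 1.80 (adjusted p = 0.00735, and 0.0551 without the libraries low in B cell genes). Apoe, which many other cells also express, was at −0.26 with no call.

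**Figure D4:**
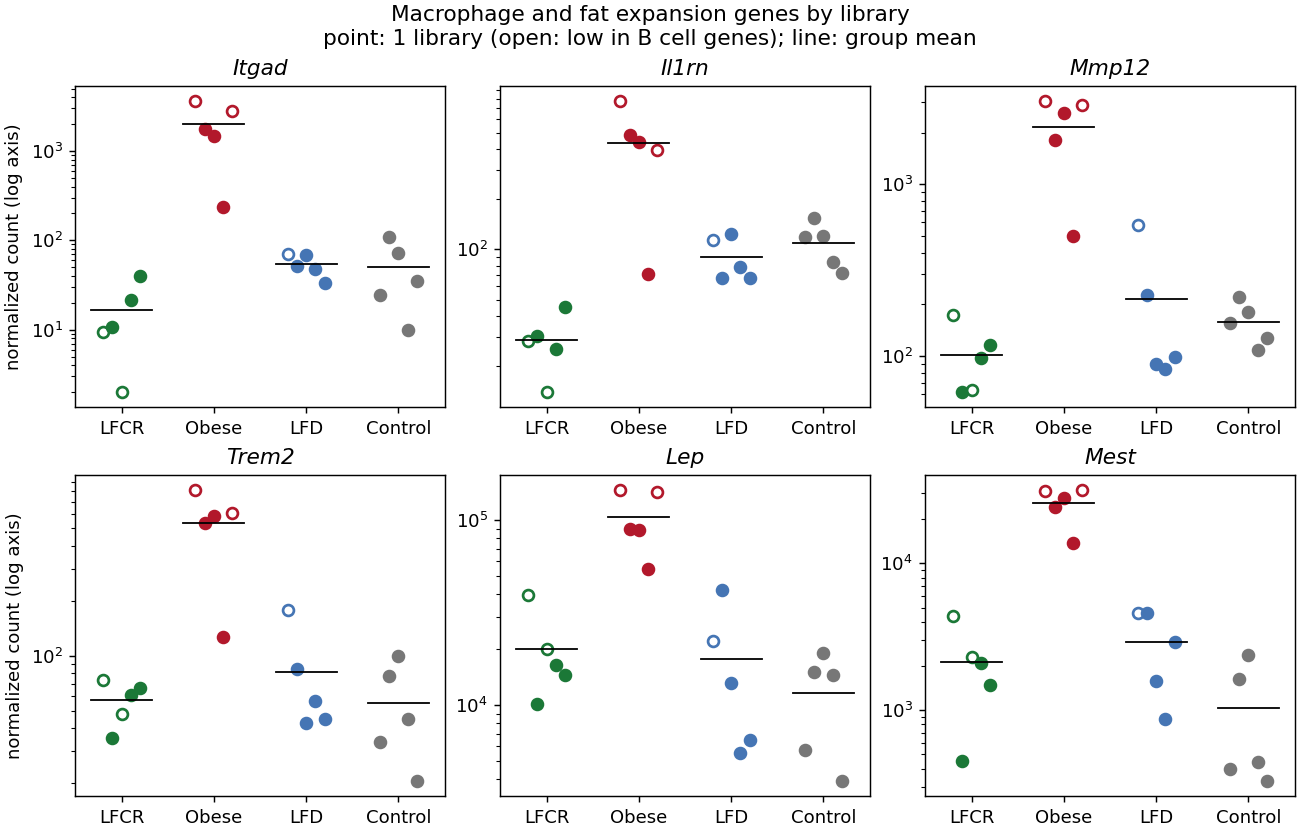
Normalized counts on a log axis of Itgad, Il1rn, Mmp12, Trem2, Lep and Mest, 1 point per library, in LFCR, Obese, LFD and Control, with group means as lines and libraries low in B cell genes as open points. The LFCR points lie below all Obese points in each panel, Obese 4 is the lowest Obese point in each, and the LFD and Control means lie closer to the LFCR mean than to the Obese mean.

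Genes that attract monocytes or sense microbes also fell in part. Of 31 chemokine ligands 8 were lower and 3 higher in LFCR; 5 were lower with a mean count filter of 50, 5 with only the compared groups in the fit, and 4 lower and 1 higher without the libraries low in B cell genes. Ccl7, a monocyte attractant, had 36.1, 48.6, 61.6, 53.0 and 65.2 counts in LFCR, against 780, 377, 258, 140 and 536 in Obese (log2 difference −2.33 ± 0.39, adjusted p = 0.000157). Ccl2, the best known of them, fell by 2.19 (adjusted p = 0.0014, and 0.0668 without the libraries low in B cell genes). Ccr2, the receptor of both ligands, was at −0.63 with no call (adjusted p = 0.107). Of 12 Toll-like receptors 5 fell, led by Tlr13, a sensor of bacterial RNA (−1.75, adjusted p = 3.25e-05), and of 24 C-type lectins 8 fell, led by Clec4d (−1.61, adjusted p = 0.000738), and none of either family rose. Of 16 complement genes 9 fell and none rose, among them C4b (−1.26, adjusted p = 0.000506). Cytokine and acute phase genes went both ways: of 14 tested, 3 rose, Cp, Orm1 and Orm2, and 3 fell, Saa3 among them. The number that fell was between 1 and 6 over the alternatives run. Saa3, an acute phase protein made by fat and macrophages, had 0, 3.24, 7.95, 1.80 and 3.53 counts in LFCR, against 474, 88.5, 42.8, 14.2 and 356 in Obese (log2 difference −2.76 ± 0.47, adjusted p = 0.000177), whereas Tnf, Il10 and Il1b were at −0.43, −0.46 and −0.90 with no call.

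Interferon response genes were lower as well, 18 of 28 with none higher and a median of −0.75. Their list mean was 9.12, 9.17, 9.21, 9.37 and 9.58 in LFCR, against 10.3, 10.1, 9.94, 9.60 and 9.84 in Obese, so the groups met without crossing. Oas1a, a sensor of double-stranded RNA with near-identical relatives that may share its reads, had 154, 170, 167, 234 and 281 counts in LFCR, against 804, 578, 395, 375 and 603 in Obese (log2 difference −1.32 ± 0.24, adjusted p = 0.000293). Oasl1 fell by 1.37 (adjusted p = 0.000403) and Oas2 by 1.09 (adjusted p = 0.00183). The count of 18 was 10 without LFCR 1, 11 without LFCR 2, 11 without Obese 2 and 5 without the libraries low in B cell genes.

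Lymphocyte genes did not separate the groups: none of 13 B cell genes and none of 14 T and NK cell genes was called, with medians of −0.55 and −0.42. Without the 4 LFCR and Obese libraries low in B cell genes, and the others like them in the series, 8 of the 13 B cell genes were lower in LFCR. None of 18 luminal epithelial genes was called (median 0.22), 1 of 17 skeletal muscle genes fell (0 without any 1 of LFCR 1, LFCR 2, LFCR 3, LFCR 4 or Obese 2), and 3 of 12 endothelial genes fell, among them Pecam1 (−0.63, adjusted p = 6.32e-05), the junction protein CD31. The endothelial count was 1 without LFCR 1, Obese 1 or Obese 5, and 8 with the B cell list as a covariate. With the B cell list as a covariate 5989 genes passed between LFCR and Obese, and 3935 with the skeletal muscle list, beside 4142 with neither.

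**Figure D5:**
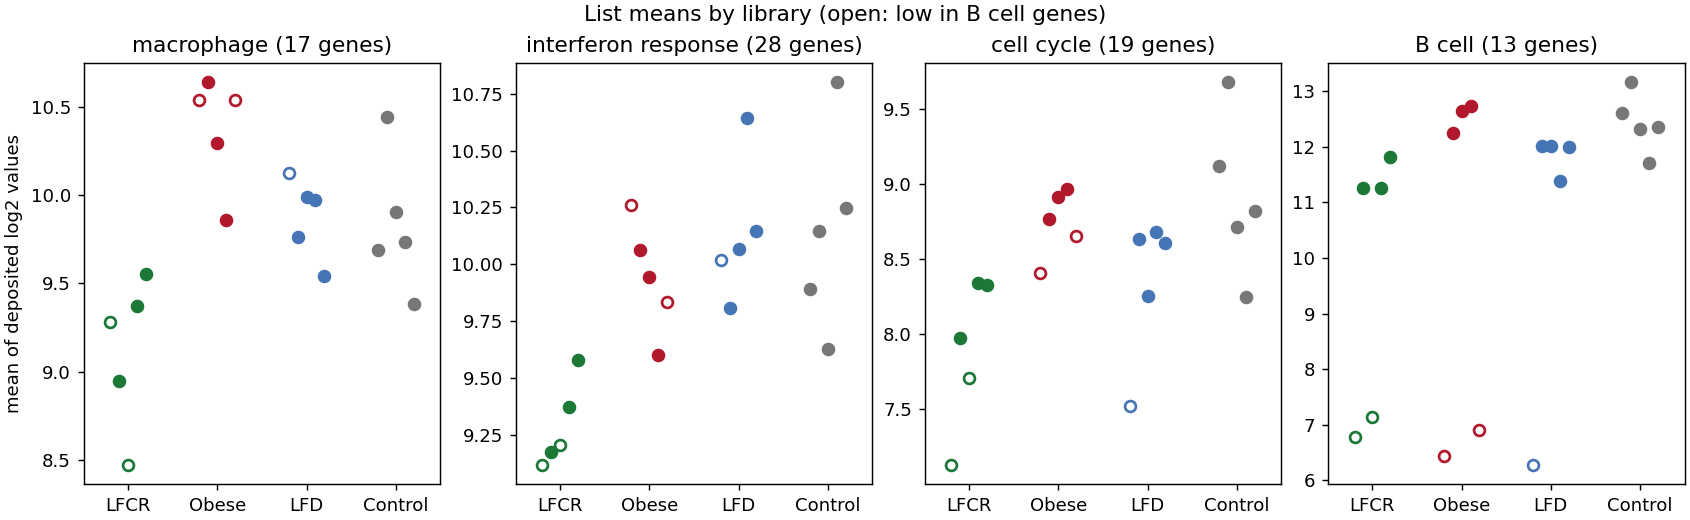
Mean of the deposited log2 values over the macrophage, interferon response, cell cycle and B cell lists, 1 point per library, in LFCR, Obese, LFD and Control, with libraries low in B cell genes as open points. Macrophage and interferon means of LFCR lie below all Obese means, and in the B cell panel 2 LFCR, 2 Obese and 1 LFD library lie far below the others.

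Counts among cell division and stress genes moved with the libraries and settings used. Of 19 cell cycle genes 9 were lower and none higher, with a median of −0.95; Cdk1, the kinase that starts mitosis, fell by 1.12 (adjusted p = 0.00534). That count was 2 without LFCR 1, 5 without any 1 of LFCR 2, LFCR 3, Obese 2, Obese 3, Obese 4 or Obese 5, 2 without the libraries low in B cell genes and 5 with the luminal list as a covariate, against 14 with quality weights and 15 with the B cell list as a covariate. Of 16 immediate early and heat shock genes 8 were lower and none higher, led by Atf3, a stress-induced repressor (−1.70, adjusted p = 0.000335). The count was 4 without LFCR 1, 4 without Obese 1, 5 with only the compared groups in the fit and 2 without the libraries low in B cell genes.

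The circadian clock genes split by arm. Arntl, which encodes the activator BMAL1, had 58.9, 147, 96.4, 154 and 212 counts in LFCR, against 670, 436, 410, 327 and 321 in Obese (log2 difference −1.57 ± 0.30, adjusted p = 0.00049). Hlf, an output factor of the clock, had 3930, 3004, 4202, 3206 and 2761 counts in LFCR, against 809, 908, 971, 1450 and 1148 in Obese (log2 difference 1.68 ± 0.30, adjusted p = 0.000257). The groups did not overlap for either gene, and the genes moved in opposite directions. Of 17 clock genes 8 rose, including the repressors Per3 and Cry1 and the output factors Dbp and Tef, and 2 fell. Without the libraries low in B cell genes 2 rose and 2 fell. The hour of sampling is not given in the labels.

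Several of the largest falls were genes better known from nerve than from fat. Gabrr2, a GABA receptor subunit, had 147, 32.4, 28.8, 30.5 and 38.8 counts in LFCR, against 1122, 668, 677, 406 and 693 in Obese (log2 difference −3.33 ± 0.48, adjusted p = 3.04e-05). Cacna1e, a voltage-gated calcium channel, had 1243, 563, 534, 593 and 1012 counts in LFCR, against 15032, 8426, 3571, 4409 and 10300 in Obese (log2 difference −3.25 ± 0.43, adjusted p = 1.55e-05). Tph2, the neuronal tryptophan hydroxylase, fell by 3.06 (adjusted p = 1.33e-05). Also among the largest falls, but not of this kind, was Mrc2, a collagen uptake receptor, which fell by 2.88 (adjusted p = 8.33e-06). None of these overlapped. Of 22 calcium channel subunits 4 fell and none rose, and of 11 GABA receptor subunits 3 fell and 1 rose, or 1 fell and none rose with a mean count filter of 50. Potassium channel subunits showed no such lean: of 68 tested, 4 rose and 4 fell, with a median of −0.07. Each of these counts was between 2 and 9 over the alternatives run.

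The unrestricted low-fat diet and the never obese mice were set beside this comparison. LFCR was above LFD for 1219 genes (6.29%) and below it for 643 (3.32%), 9.60% in all, and above Control for 3890 (20.1%) and below it for 3493 (18.0%), 38.1% in all. These contrasts share the LFCR libraries with the one against Obese, so they are given side by side and not as separate support. Fasn was higher in LFCR by 2.63 against LFD (adjusted p = 0.0396) and by 2.68 against Control (adjusted p = 0.0142), Acly by 2.65 and 2.27 (adjusted p = 0.0241 and 0.017), and Acaca by 2.25 and 2.27 (adjusted p = 0.0289 and 0.00943). Against Control the call of Fasn was lost without Control 1 (adjusted p = 0.0501) and without Control 2 (0.0601), and that of Acly without Control 1 (0.0606), without Control 2 (0.0629), with quantile normalization (0.0529) and without the libraries low in B cell genes (0.0506). Cyp2e1 and Alb were likewise above LFD, by 1.90 and 2.02 (adjusted p = 0.0314 and 0.00672), and above Control, by 2.47 and 2.38 (adjusted p = 0.00224 and 0.000438). Against LFD the call was lost under 14 of 22 alternatives for Fasn, 10 for Cyp2e1, 9 for Acaca, 8 for Acly and 2 for Alb. Of the genes that fell against Obese, Itgad was at −1.14 against LFD (adjusted p = 0.162) and −0.88 against Control (adjusted p = 0.164), Mmp12 at −0.64 and −0.57 (adjusted p = 0.412 and 0.326), Lep at 0.42 and 0.87 (adjusted p = 0.64 and 0.183) and Mest at −0.50 and 1.16 (adjusted p = 0.675 and 0.176). Il1rn was called against Control (−1.38, adjusted p = 0.0137) and not against LFD (−1.16, adjusted p = 0.0743).

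By list, the supply of acetyl-CoA had 12 of 14 genes higher in LFCR than in LFD (median 1.30) and 13 of 14 higher than in Control (median 1.49), and interferon response had 17 of 28 lower than in LFD and 21 of 28 lower than in Control. Macrophage genes had 4 of 17 lower and none higher against LFD (median −0.64), and 10 lower and none higher against Control (median −0.75). Lipid-associated macrophage genes had 1 of 16 lower and none higher against LFD, and 1 lower and 3 higher against Control. In the same fit 12 of 18 luminal epithelial genes were lower in LFCR than in LFD (median −0.98), and the luminal list mean was 9.52 to 10.2 in LFCR, against 9.84 to 11.8 in LFD. With that list as a covariate 12 genes in all passed between LFCR and LFD, and 19 without the libraries low in B cell genes. The LFD calls of Fasn, Acly, Acaca, Cyp2e1 and Alb were each lost in these fits, and list counts against LFD were not repeated in them. Against LFD the number of genes that passed was also 487 without LFD 1, 595 without LFD 3, 489 without LFCR 2, 791 without LFCR 3, 834 without LFCR 1 and 1088 without LFD 4. Against Control it was 4364 without Control 1, 4468 without Control 2, 4703 without LFCR 1 and 4716 without LFCR 3, beside 7383 with all libraries.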

How the data were processed

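Total RNA was extracted with TRIzol and sequenced from stranded total RNA libraries as paired reads of 76 bases on an Illumina HiSeq instrument, per the labels' protocols. TopHat2 2.0.7, HTSeq 0.5.3p9, DESeq2 and the mm10 build are named per the submitters' processing notes; how strand was counted is not stated in the labels, so reads of overlapping genes on opposite strands may not have been kept apart. The authors deposited 1 log2 value per gene and library for 30818 genes, with a lowest value of 3.75. Undoing a variance-stabilising transform gave whole reads for 100% of values within 0.01; that reading comes from the values. Reads carry no molecular identifiers.

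Genes with a normalized count of 10 or more in at least 4 libraries (19387) were tested on the deposited log2 values with limma 3.58.1 (R 4.3.3, statmod 1.5.0), tested on simulated data: 1 mean per group over all 29 libraries in 6 groups, trend and robust moderation, Benjamini-Hochberg adjustment, threshold 0.05. Comparisons were contrasts of this fit. Genes named were the 5 markers and 3 readouts, the 15 largest rises and falls with a mean count of 50 or more, up to 4 called members per list and direction, and members of lists with 20 or fewer genes; some of these are not reported here. Libraries, lists and this rule were chosen with earlier results of these data known. TPM used exon lengths of GENCODE vM21 genes, with 30076 symbols matched.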

Additional observations from a re-analysis of the deposited data

Results flagged for a closer look

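Among 34 genes whose values are given per library, 68 groups of 5 libraries were examined for 1 library far from the other 4, and 3 were found, where chance gives about 1 in 20. Gabrr2, the GABA receptor subunit, had 147 counts in LFCR 1, against 28.8 to 38.8 in the other LFCR libraries. Elovl1, the elongase, had 1179 counts in LFCR 1, against 1014 to 1059 in the other LFCR libraries. Trem2, the macrophage lipid receptor, had 126 counts in Obese 4, against 534 to 811 in the other Obese libraries.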

How the results depend on the processing

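Against Obese, 4142 genes passed with all libraries, 3215 to 4382 when 1 library was left out and 7716 with array quality weights. Without the libraries low in B cell genes 3600 passed, of which 2765 were among the 4142. With only the compared groups in the fit 3282 passed, of which 3102 were among the 4142. With the B cell list as a covariate 46.9% of calls were higher in LFCR, beside 55.9% without it. Of 95 called genes named against Obese, 88 kept the call and direction under every alternative and 95 without each library. Scd1 lost its call under quantile normalization (log2 difference 0.53, adjusted p = 0.0703). That setting gives genes of equal rank the same value in every library, and the cause of the loss was not tested. The calls of Slc2a1, Gpnmb, Ccl2, Per3, Dbp and Tef were lost without the libraries low in B cell genes, and the cause was not tested. Some genes without a call against Obese passed under some alternative. Their smallest adjusted p was 0.0057 for Mrc1, 0.0040 for Apoe, 0.0118 for Ccr2, 0.0365 for Il1b and 0.0223 for Adipoq. It was 0.0280 for H19 and 0.0027 for Pdp1. Nfya, Nfyc, Usf2, Scap and Srebf2 also passed under some alternative. G6pdx, Nfyb, Usf1, Cd36, Igf2, Ucp1, Tnf and Il10 passed under none. The sign changed for 3 genes that were not called: G6pdx was at 0.063 with quality weights, 0.13 without the libraries low in B cell genes and −0.21 to 0.081 with 1 library left out; Cd36 at 0.077 without the libraries low in B cell genes and −0.22 to 0.16 with 1 left out; Ucp1 at 0.080 with voom on the recovered reads, 0.49 with quality weights, 0.67 without the libraries low in B cell genes and −0.49 to 0.33 with 1 left out. Against LFD, 1862 genes passed with all libraries, 487 to 2401 with 1 library left out, 1061 with only the compared groups in the fit, 3578 with quality weights, 794 with lane as a term, 2851 with the B cell covariate, 12 with the luminal covariate and 19 without the libraries low in B cell genes; the cause was not tested. Lep against LFD was at −0.27 with the luminal covariate. Against Control, 7383 passed with all libraries, 4364 to 8157 with 1 left out, 4177 with the B cell covariate and 4915 without the libraries low in B cell genes. No paired analysis was possible because the labels give the libraries no replicate numbers that groups share; with lane, named in the column headers, as a term, 3748 genes passed against Obese. The deposited transform flattens low counts, so differences of genes with low counts in 1 group, such as Itgad, Slc2a5 and Saa3, are understated. With 5 libraries a group, small differences can be missed.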
